A study of Homo sapiens with 2 samples.

Results

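DNMT1, DNMT3B, DNMT3L and UHRF1, which write or help to write DNA methylation, and TET1, TET2, TET3 and TDG, which take part in its removal, were examined as the targets of methylation rather than as its agents. These 8 genes, out of 64449 annotated genes, were chosen by name, and their own promoters and gene bodies were read out in 2 whole-genome bisulfite sequencing libraries. DNMT3A was left out because the introduced DNMT3A sequence adds reads to its exons. All 8 had a promoter and a body with enough CpGs to be tested.

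The cells were HEK293T, a human embryonic kidney line kept in culture. The Neg library came from cells that the study describes as not transduced. The dCas9+3A+HOXA5 library came from cells carrying, on separate lentiviral vectors, a dead Cas9 tagged with SunTag peptide repeats, a single-chain antibody (which binds the repeats) joined to the long form of DNMT3A, and a HOXA5 guide RNA, and sorted for the fluorescent markers. The labels give both samples the same text, with 30 days of infection, so that their titles alone separate them. Each group is 1 library, and a test on read counts compares these 2 libraries and not the conditions. The difference between the groups has no replicate check.

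DNMT1 copies methylation to the new strand after replication, and UHRF1 brings it there by binding hemimethylated CpGs. DNMT3B sets methylation on unmethylated DNA, and DNMT3L, which has no catalytic activity, stimulates the DNMT3 enzymes. The TET enzymes oxidise 5-methylcytosine, and TDG, a DNA glycosylase, excises the more oxidised forms so that base excision repair can put back an unmethylated cytosine. Bisulfite sequencing reads 5-methylcytosine and 5-hydroxymethylcytosine alike, so the level of a CpG is the share of its reads with C and holds both marks.

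At the locus of the guide, which checks the labels, over 4.5 kb centred on the HOXA5 protospacer (chr7:27180644-27185143, hg19) 213 CpGs averaged 3.15% in Neg against 51.4% in dCas9+3A+HOXA5. Neg held 89774283 reads at CpGs (median 3 per CpG) and dCas9+3A+HOXA5 46703423 (median 2), and 14699127 CpGs were read in both. Over these shared CpGs Neg averaged 63.5% and dCas9+3A+HOXA5 69.4%. On the mitochondrial chromosome, the share of reads with C was 6.98% for Neg and 4.25% for dCas9+3A+HOXA5. Whether levels of this size at a promoter come from incomplete conversion was not tested. The mitochondrial share is not a floor for nuclear CpGs. Within 500 bases either side of the canonical DNMT1 start, 3 of 223 reads in Neg and 0 of 191 in dCas9+3A+HOXA5 were methylated. The upper Wilson limits there, 3.88% and 1.97%, lay below the mitochondrial shares. How far conversion differs between the 2 genomes was not tested.

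Among 1-kb tiles over the 8 genes, those called lay in about 3 kb before the TET3 start, after the TET1 start, and in the bodies of TET1 and DNMT3L. They were 6 of 491 tiles, a share no higher than the 1.45% of all tiles called higher, and none was called with 1 CpG kept in each 150 bases. The sequences below, from GRCh37 (the coordinates of hg19) unless stated, are shown because they lie in called tiles or, for the UHRF1 edge, at a like distance before a start. The TET3 core lies mostly in the same tile as the TET3 edge and is shown beside it. They read 5′ to 3′ on the strand of the gene. In the edges and the body, capitals mark the CpGs whose level was higher by more than 50 points in dCas9+3A+HOXA5. In the TET3 core, taken from RefSeq (GRCh38.p14) and found unchanged in GRCh37, capitals mark every CpG. RefSeq promoter sequences were at hand for 7 of the 8 genes, all but DNMT3L.
TET3 edge: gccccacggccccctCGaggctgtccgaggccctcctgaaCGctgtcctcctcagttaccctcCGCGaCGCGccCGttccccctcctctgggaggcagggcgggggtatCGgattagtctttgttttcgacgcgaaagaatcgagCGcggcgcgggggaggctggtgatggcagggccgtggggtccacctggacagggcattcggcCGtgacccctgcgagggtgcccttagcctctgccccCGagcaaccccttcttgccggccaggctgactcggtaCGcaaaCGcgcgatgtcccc
TET3 core: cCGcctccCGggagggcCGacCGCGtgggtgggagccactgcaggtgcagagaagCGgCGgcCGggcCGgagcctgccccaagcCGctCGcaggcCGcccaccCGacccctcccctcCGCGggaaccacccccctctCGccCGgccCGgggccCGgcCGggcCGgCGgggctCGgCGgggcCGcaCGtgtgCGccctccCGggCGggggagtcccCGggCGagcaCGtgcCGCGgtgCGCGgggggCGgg
TET1 edge: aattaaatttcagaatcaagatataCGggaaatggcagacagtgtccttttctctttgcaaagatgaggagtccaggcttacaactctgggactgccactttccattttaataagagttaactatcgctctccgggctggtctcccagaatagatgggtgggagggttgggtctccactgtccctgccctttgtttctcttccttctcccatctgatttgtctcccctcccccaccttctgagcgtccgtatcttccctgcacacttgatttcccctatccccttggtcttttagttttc
UHRF1 edge: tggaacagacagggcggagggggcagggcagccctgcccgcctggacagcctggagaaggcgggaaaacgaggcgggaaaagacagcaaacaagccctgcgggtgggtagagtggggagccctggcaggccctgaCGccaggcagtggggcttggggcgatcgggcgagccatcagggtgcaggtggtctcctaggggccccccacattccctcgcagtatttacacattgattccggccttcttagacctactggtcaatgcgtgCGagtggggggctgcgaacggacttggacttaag
DNMT3L body: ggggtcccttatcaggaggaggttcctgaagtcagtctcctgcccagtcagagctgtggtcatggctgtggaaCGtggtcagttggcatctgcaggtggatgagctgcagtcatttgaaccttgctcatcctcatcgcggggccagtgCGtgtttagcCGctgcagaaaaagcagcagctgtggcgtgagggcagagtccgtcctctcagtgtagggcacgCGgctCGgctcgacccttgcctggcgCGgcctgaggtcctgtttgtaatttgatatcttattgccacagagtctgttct

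The TET3 edge (chr2:74211237-74211536, + strand, intergenic) covers 300 bases from -800 bases of the start on. It holds 30 CpGs, of which 13 are in capitals. The TET3 core (chr2:74211787-74212036, + strand) is the last 250 bases before the start and holds 37 CpGs, with a GC content of 84.0%. The TET1 edge (chr10:70322317-70322616, + strand, intronic) lies from 2223 to 2522 bases after the start, and 1 of its 5 CpGs is in capitals; its last base is the C of 1 further CpG, which was counted with the reads of the edge. The UHRF1 edge (chr19:4908913-4909212, + strand) covers 300 bases from -600 bases of the canonical start on, inside an intron of the longest UHRF1 transcripts, and 2 of its 16 CpGs are in capitals. The DNMT3L stretch (chr21:45669183-45669482, - strand) lies 12298 to 12597 bases from the canonical start, overlaps no exon of DNMT3L, and has 6 of 13 CpGs in capitals; its first base is the G of 1 further CpG, which was counted in the level of the stretch.

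Promoters were taken as 1 kb either side of the gene start, the outermost annotated 5′ end. The level of a region is the mean over its shared CpGs. A region was called where the level differed by more than 20 percentage points and Fisher's exact test on the summed reads gave a Benjamini-Hochberg adjusted p under 0.01 over all regions. A read is counted at every CpG it covers, so a DNA molecule that spans several CpGs is counted several times. By this rule 1 of the 8 promoters, that of TET3, was called higher in dCas9+3A+HOXA5 and none lower, where 2.34% of all 53244 promoters were called higher and 0.582% lower. The median difference over the 8 promoters was 3.64 points, over all promoters 2.61 points and over those of protein-coding genes 1.37 points. The median level in Neg was 9.52% for the 8, 57.5% for all promoters and 15.2% for those of protein-coding genes.

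The outermost start is not always the main one. The GENCODE canonical start of DNMT1 lies 36333 bases downstream of the outermost start, which itself is 45 bases from the start of S1PR2, a sphingosine-1-phosphate receptor gene. That of UHRF1 lies 6421 bases downstream, and the outermost UHRF1 start is 184 bases from the start of ARRDC5. For TET2 the distance is 1001 bases, for DNMT3L 319 and for TDG 50, and for the other 3 genes both starts are the same base. At the canonical starts, 1 of 8 promoters (TET3 again) was called higher and none lower, where 2.30% of 53330 were called higher and 0.596% lower. The median difference of the 8 was then 1.62 points, against 2.48 points for all genes and 1.23 points for protein-coding genes.

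**Figure D1:**
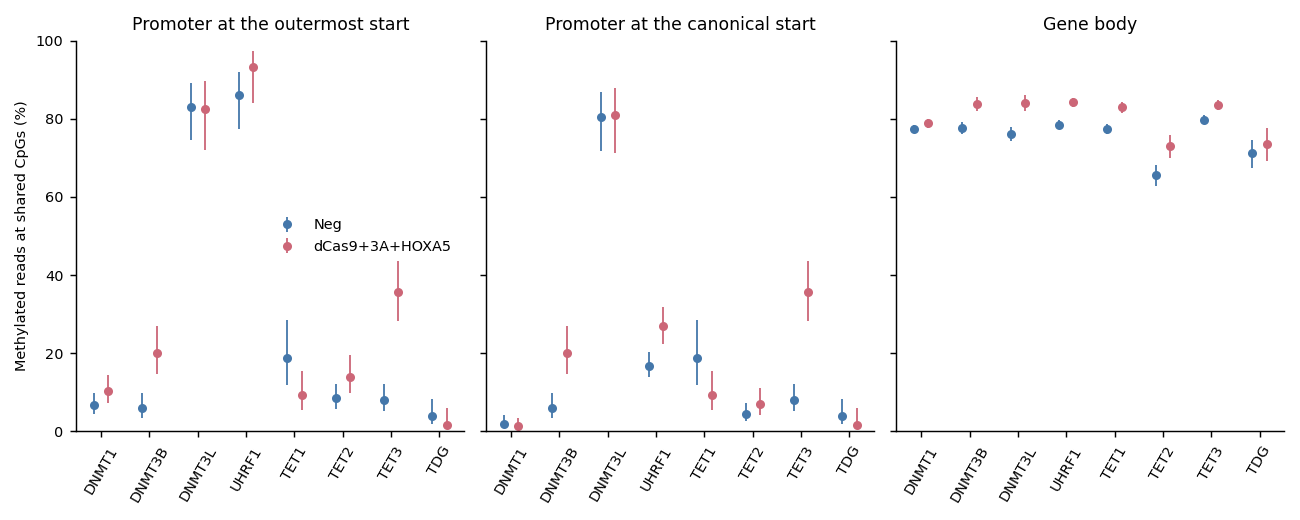
Share of methylated reads (%) at shared CpGs of each gene in Neg (blue) and dCas9+3A+HOXA5 (red), for both promoter definitions and the gene body; bars are 95% Wilson intervals, which cover counting error only. TET3 stands apart among the promoters (8.06% and 35.6%), while the bodies lie between 65.5% and 84.2%.

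Among the writers, the canonical DNMT1 promoter had a level of 1.64% ± 8.68 (SD over 89 CpGs) in Neg against 1.12% ± 10.6 in dCas9+3A+HOXA5. Of these 89 CpGs, 85 were at 0 in both libraries. The outermost DNMT1 promoter, shared with S1PR2, was at 6.10% ± 22 and 6.53% ± 23.5 over 97 CpGs. The canonical window thus lay below the C share on the mitochondrial chromosome in both libraries. For the outermost window, the read share in Neg was 6.60%. That in dCas9+3A+HOXA5 was 10.2% (29 of 283 reads), and its Wilson interval of 7.23 to 14.3% lies above the mitochondrial share. Between the libraries, Fisher's exact test gave an adjusted p of 0.368. In both, most methylated reads lay in the 1 kb before the outermost start. There Neg had 17 of 91 (18.7%) and dCas9+3A+HOXA5 23 of 106 (21.7%), both above the mitochondrial share. The 1 kb after that start held 4 of 227 and 6 of 177.

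At the main settings DNMT3B had the largest promoter difference among the writers, 7.36 points. The ranking depends on the setting: with at least 3 reads per CpG, UHRF1 differed by 11.9 points and DNMT3B by 10.6. Over 60 CpGs the DNMT3B level (± SD) was 10.4% ± 27.4 in Neg against 17.8% ± 35.7 in dCas9+3A+HOXA5. Methylated reads were 13 of 219 (5.94%, Wilson interval 3.5 to 9.89%) and 32 of 159 (20.1%, 14.6 to 27.0%), and Fisher's exact test gave an adjusted p of 0.00102. With 1 CpG kept in each 150 bases, the level turned round, at 36.7% and 31.3% over 12 CpGs. Methylated reads were then 8 of 34 and 19 of 42, so the read share kept its direction. The adjusted p of Fisher's exact test was 0.397. Thinning also changes which CpGs weigh in the window, as the Neg level was 36.7% after it and 10.4% before. Over all 60 CpGs the difference in level stayed below the 20 points of a call. Within the window it was largest from -1 to -0.5 kb, at 22.5 points over 6 CpGs, and was 6.42 points over 27 CpGs from 0.5 to 1 kb. From -0.5 kb to the start the levels were 0% and 4.76% over 7 CpGs, and in the next 500 bases 0% and 5.0% over 20 CpGs. From 1 to 1.5 kb after the start, outside the promoter window, they were 38.4% and 80.3% over 20 CpGs. Bins farther out went either way: from 1.5 to 2 kb the level was lower in dCas9+3A+HOXA5, with 97.8% and 72.1% over 7 CpGs, as from -3 to -2.5 kb with 91.9% and 55.0% over 10. It was higher from -2 to -1.5 kb, with 32.0% and 81.3% over 8 CpGs, and from 2 to 2.5 kb by 31.4 points over 7. Around the second DNMT3B start, 17.5 kb downstream, a window of 500 bases either side was methylated in both libraries, at 87.3% and 95.6% over 9 CpGs.

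DNMT3L, whose expression is known from germ cells and early embryos, was the one gene with a methylated canonical start. Around the canonical start the 25 shared CpGs averaged 82.1% ± 26.2 in Neg against 83.9% ± 28.8 in dCas9+3A+HOXA5. Around the outermost start the values were 81.8% ± 26.3 and 81.7% ± 33.7. That difference varied with the setting, from 16.1 points with 500 bases either side to -10.9 points with at least 5 reads per CpG. The sequence around the canonical start is CpG-poor, with an observed-to-expected CpG ratio of 0.252 over 2001 bases, where the canonical promoters of the other 7 genes lie between 0.635 and 0.804. CpGs with a higher and with a lower level in dCas9+3A+HOXA5 were equally frequent around the canonical start, at 8 each.

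UHRF1 gave different answers by start and by measure. Over the outermost promoter, a CpG-poor stretch, the level was 85.6% ± 13.4 and 91.1% ± 25.7 over 21 CpGs. Over the canonical promoter with 133 CpGs, it was 18% ± 35.5 in Neg against 16.1% ± 35.6 in dCas9+3A+HOXA5. There the share of methylated reads went the other way, with 89 of 530 (16.8%) and 88 of 328 (26.8%), and Fisher's exact test gave an adjusted p of 0.00729. With a Cochran-Mantel-Haenszel test stratified by CpG the adjusted p was 0.559. The 1 kb before the canonical start held nearly all the methylation (47.7% and 43.7% over 47 CpGs), and the 1 kb after it was at 1.83% and 1.05% over 86 CpGs. The UHRF1 edge printed above was already methylated in Neg, with 80.8% ± 30.8 and 88.9% ± 27.2 over 16 CpGs.

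Among the erasers, the TET1 promoter, which drives an enzyme abundant in pluripotent cells, averaged 13.9% ± 31.6 in Neg against 17.6% ± 37.8 in dCas9+3A+HOXA5 at 36 CpGs. Its read share went from 18.8% to 9.23%, so the direction depends on whether CpGs or reads are averaged, and the adjusted p of Fisher's exact test was 0.220. From the start to 1 kb after it, 1.19% and 0% were read over 28 CpGs. The downstream edge differed more. From 2 to 2.5 kb 5 CpGs averaged 0% in Neg against 48.0% in dCas9+3A+HOXA5, and from 2.5 to 3 kb 0% and 66.7% over 3 CpGs. The printed TET1 edge had 0 of 18 methylated reads in Neg and 5 of 17 in dCas9+3A+HOXA5. Before a second pair of TET1 starts in RefSeq, 39931 and 40137 bases into the gene, windows of 250 bases were read at 2 and 7 CpGs and had levels from 0 to 1.30%.

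TET2, a frequent target of mutations in blood cancers, had 8.66% ± 22.4 and 12.2% ± 30.1 over 80 CpGs at its outermost start. At its canonical start the values were 4.84% ± 14.5 and 6.36% ± 21.0 over 91 CpGs. Neither passed the test (adjusted p 0.234 and 0.503, Fisher's exact test). TDG shares its promoter with UQCC6, whose start lies 114 bases away on the opposite strand. The 45 CpGs there averaged 2.56% ± 9.19 in Neg against 0.635% ± 4.26 in dCas9+3A+HOXA5, and 40 of them were at 0 in both.

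Over its 62 shared CpGs the TET3 promoter was at 6.16% ± 14.7 (SD) in Neg and 27.4% ± 41.0 in dCas9+3A+HOXA5, higher by 21.3 points. Methylated reads were 20 of 248 (8.06%, Wilson interval 5.28 to 12.1%) in Neg and 52 of 146 (35.6%, 28.3 to 43.7%) in dCas9+3A+HOXA5, and Fisher's exact test gave an adjusted p of 6.0e-09. Of its 219 CpGs, 185 were listed in Neg and 62 in dCas9+3A+HOXA5. Of the 62 shared CpGs, 36 were at 0 in both libraries, 19 were higher and 6 lower in dCas9+3A+HOXA5. Of the 19, 16 were higher by more than 50 points, and no CpG was lower by that much. In size the difference stood at percentile 90.9 of all promoters. Among promoters of protein-coding genes it lay above percentile 95, which was at 18.9 points.

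Within the TET3 window the difference was uneven. From -1 to -0.5 kb the 30 CpGs averaged 8.29% in Neg against 49.5% in dCas9+3A+HOXA5, and in the last 500 bases before the start it was 2.08% and 2.38% over 28 CpGs. The printed TET3 edge was at 8.57% ± 17.5 and 47.8% ± 44.9 over 29 CpGs, read by 2 to 8 reads per CpG in Neg and 1 to 5 in dCas9+3A+HOXA5. The printed core was read in both libraries at 5 of its 37 CpGs, with 1 methylated read of 11 in Neg and 0 of 5 in dCas9+3A+HOXA5, which is too few to compare. In the 1 kb after the start only 4 of 122 CpGs were read in both. A window of 500 bases either side of a second TET3 start, 17.8 kb downstream, was at 3.69% and 3.06% over 49 CpGs.

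Reads that span several of these closely spaced CpGs are counted at each. With 1 CpG kept in each 150 bases, the TET3 promoter held 3 of 29 methylated reads in Neg and 11 of 21 in dCas9+3A+HOXA5 over 8 CpGs, a difference of 41.9 points, and the adjusted p of Fisher's exact test was 0.0676, so the call was lost. Calls became fewer over all genes too, with 236 of 46580 promoters called higher after this thinning and 1245 of 53244 before it. The TET3 call was also lost with 500 bases either side (0.298 points), and with at least 5 reads per CpG (28.9 points over 8 CpGs).

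**Figure D2:**
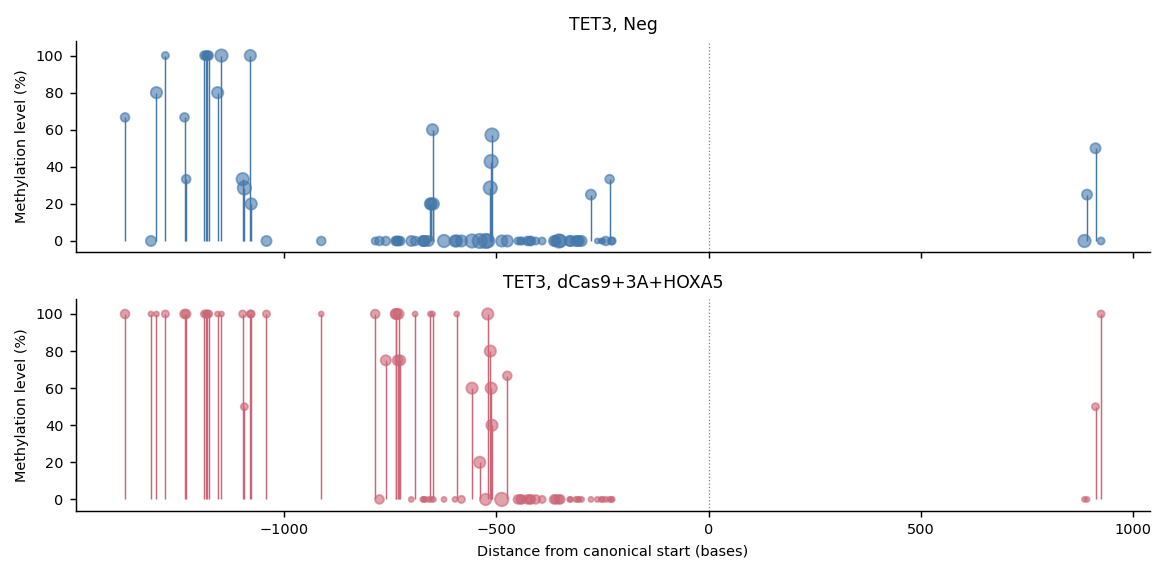
Level (%) of each CpG read in both libraries from 1.5 kb before to 1 kb after the TET3 start (dotted line), with circle area by reads at the CpG, in Neg (top) and dCas9+3A+HOXA5 (bottom). The tall stems of dCas9+3A+HOXA5 reach inward to about 500 bases before the start, where the level from -1 to -0.5 kb was 49.5% against 8.29% in Neg; the gap around the start was not read in both libraries.

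The 3 protein-coding genes closest to TET3 in their 4 levels (promoter and body in each library), among 15452 with at least 20 shared CpGs in both regions, were PATJ, LHX1 and COLEC12. PATJ lay 3.02 points from TET3, with promoter levels of 6.53% and 26.5% and body levels of 80.0% and 84.9%. LHX1 lay at 3.85 and COLEC12 at 3.90 points.

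The profiles along distance show how the starts compare. For the 7 genes with a CpG-rich canonical start (at least 50 CpGs within 500 bases either side, all but DNMT3L), the level dropped to between 0% and 5.0% in the first 500 bases after the start in both libraries wherever CpGs were shared. From -1 to -0.5 kb, TET3 differed by 41.2 points, DNMT3B by 22.5 points over 6 CpGs, TET2 by 14.3 over 22, TET1 by 13.3 over 5, TDG by 0 over 6 and UHRF1 by -2.31 over 13, and DNMT1 had 1 shared CpG there. Among 13065 protein-coding genes with such starts, bins with at least 5 shared CpGs were averaged. The mean difference was 0.605 points in the last 500 bases before the start (12228 genes) and 0.0877 points in the first 500 after it (12447 genes). It was 4.81 points from -1 to -0.5 kb (9231 genes) and 7.26 points from 1 to 1.5 kb after the start (7204 genes). In the bin from -1 to -0.5 kb, 13.2% of those 9231 genes differed by more than 20 points upward, as TET3 and DNMT3B did, and 3.70% downward.

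**Figure D3:**
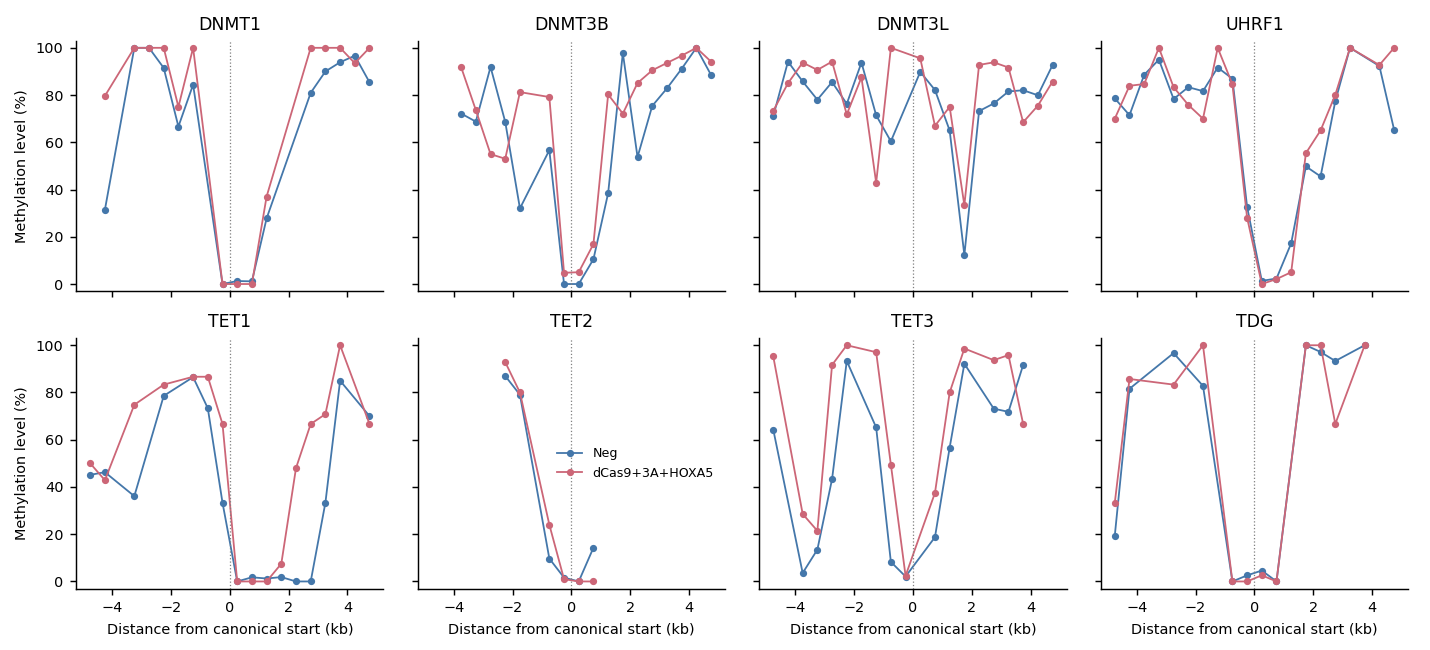
Mean level (%) in bins of 500 bases from -5 to 5 kb of the canonical start in Neg (blue) and dCas9+3A+HOXA5 (red), for bins with at least 3 shared CpGs. The starts are low in both libraries except in DNMT3L, and the curves part at the shoulders of TET3, TET1 and DNMT3B (80.3% against 38.4% from 1 to 1.5 kb of DNMT3B, where the next bin has 72.1% against 97.8%). They also part farther out in other genes, as in DNMT1 from -4.5 to -4 kb (79.6% against 31.5% over 9 CpGs).

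**Figure D4:**
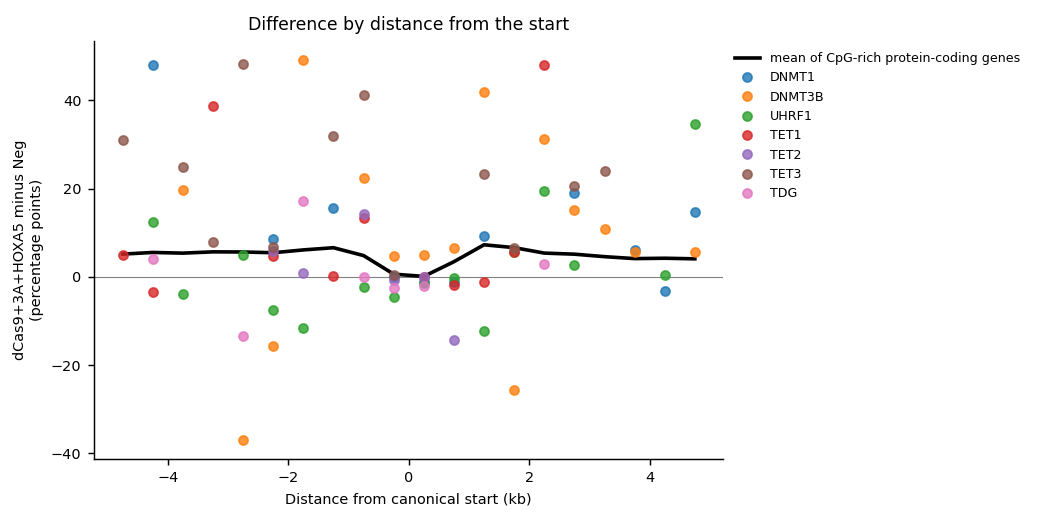
Difference in level (percentage points, dCas9+3A+HOXA5 minus Neg) by distance from the canonical start, for the mean over CpG-rich protein-coding genes with at least 5 shared CpGs in the bin (line, 4576 to 12447 genes) and the 7 genes with a CpG-rich start (points, bins with at least 5 shared CpGs). The line dips to 0.0877 points just after the start, and the points spread more with distance than at the start.

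Over the gene bodies, from the outermost start to the annotated end, all 8 genes had a higher level in dCas9+3A+HOXA5, by 1.57 to 6.42 points. None was called, since none differed by more than 20 points, where 3.87% of 44567 bodies were called higher and 0.525% lower. The median difference was 4.69 points for the 8, 4.33 points for all bodies and 3.82 points for those of protein-coding genes. A higher body level in dCas9+3A+HOXA5 was common, as 34300 of the 44567 bodies had one.

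DNMT3L had the largest body difference, 6.42 points, with 76.0% ± 29.9 in Neg against 82.5% ± 31.8 in dCas9+3A+HOXA5 over 357 CpGs (adjusted p 1.13e-07, Fisher's exact test). DNMT3B followed with 76.9% ± 34.5 and 82.2% ± 34.7 over 582 CpGs. DNMT1 had 76.1% ± 35.6 and 78.3% ± 37.6 over 1516 CpGs (adjusted p 0.110, Fisher's exact test). With the Cochran-Mantel-Haenszel test stratified by CpG, DNMT1 had an adjusted p of 0.000305, and TDG was the only one of the 8 bodies above 0.01 (0.462). UHRF1 had 78.8% ± 32.5 and 80.7% ± 35.7 over 1294 CpGs, 1.90 points apart. Its read shares of 78.5% and 84.2% were 5.67 points apart, and Fisher's exact test on these reads gave an adjusted p of 6.47e-12.

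Of the erasers, TET2 had the lowest body level in both libraries, 65.8% ± 42.4 and 71.1% ± 43.5 over 394 CpGs. TET1 had 79.0% ± 33.1 and 83.3% ± 34.5 over 1066 CpGs. TET3 had 77.9% ± 32.1 and 83.0% ± 33.8 over 1086 CpGs, in contrast to its promoter. TDG, the shortest but one of the 8 genes, had 77.5% ± 35.3 and 79.1% ± 38.8 over 152 CpGs and did not pass the test (adjusted p 0.584, Fisher's exact test). In all, 6 of the 8 bodies had an adjusted p under 0.01 by Fisher's exact test. So had 14055 of all 44567 bodies and 7924 of the 19428 of protein-coding genes. These shares are not alike in power, since the p falls with the number of reads. The 8 bodies had 152 to 1516 shared CpGs, where a body needed only 5 to be tested. With 1 CpG kept in each 150 bases, UHRF1 alone of the 8 stayed under 0.01 (adjusted p 4.04e-05, Fisher's exact test), and the other 5 of these 6 lay between 0.0169 and 0.0560.

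**Figure D5:**
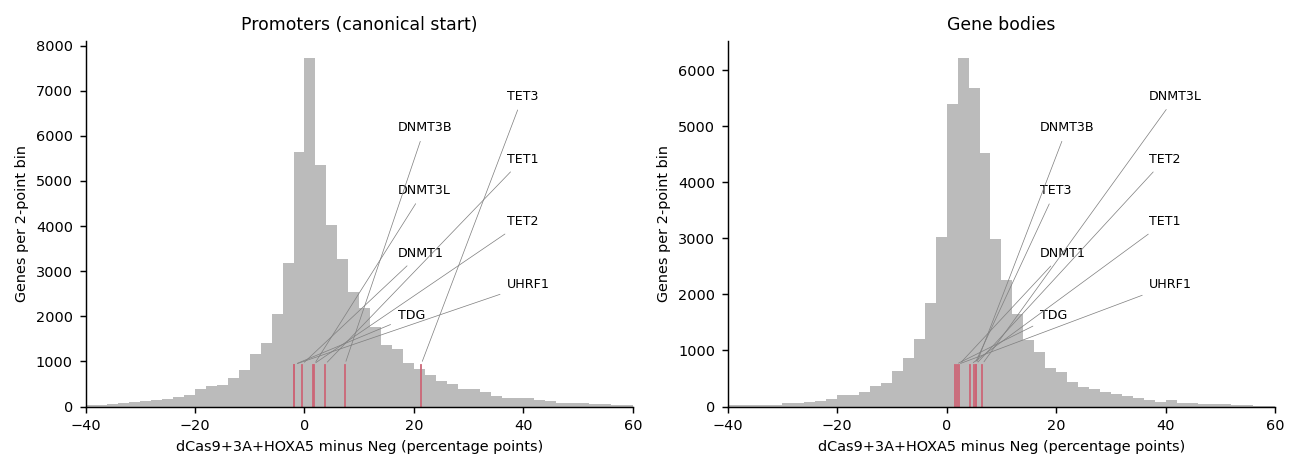
Number of genes by difference in level (percentage points, dCas9+3A+HOXA5 minus Neg, bins of 2 points) for canonical promoters (left) and bodies (right), with the 8 genes marked in red. TET3 has the largest promoter difference of the 8, 21.3 points, at percentile 91.0 of all canonical promoters. For those of protein-coding genes, percentile 95 is at 17.9 points. In the bodies all 8 genes fall between 1.57 and 6.42 points, in the middle of the distribution.

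The body values were split by the canonical transcript. Exon differences ran from -10.8 points in TDG, over 16 CpGs, to 4.32 points in DNMT3L, over 56 CpGs. The exons of TET3 were at 90.0% and 92.5% over 217 CpGs, and those of DNMT1 at 87.6% and 85.5% over 194 CpGs. Introns were higher in dCas9+3A+HOXA5 in all 8 genes, by 1.86 points in DNMT1 to 6.84 points in DNMT3L. With the body cut into 10 equal parts, the lowest levels were in the parts that hold the CpG-rich starts: 25.8% and 30.9% in part 4 of DNMT1, 33.2% and 34.0% in part 2 of UHRF1, and 26.3% and 28.9% in part 1 of TET2. In TET3 it was part 2 (42.3% and 45.5%), which holds the start 17.8 kb downstream. Part 1 of TET3 was at 79.6% and 88.9% over 114 of its 278 CpGs, with few shared CpGs near the start, as given above.

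The 50 kb on each side served as a comparison. In UHRF1, TET2 and TDG both flanks differed by more than the body, and in DNMT3B and DNMT3L both by less. In the 50 kb before TET3 365 CpGs averaged 65.2% in Neg against 76.5% in dCas9+3A+HOXA5, 11.3 points apart against 5.06 in its body. That flank contains the called TET3 tiles given below and the upstream kb of the TET3 promoter. It is thus not separate from them, and the flank without these tiles was not read out. Around TET2, which lies in a CpG-poor stretch, the 50 kb before differed by 14.0 points over 179 CpGs and the 50 kb after by 12.6 points over 121. In UHRF1 they differed by 6.69 and 6.99 points, and in DNMT1 by 3.33 and 0.658 points.

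Non-overlapping 1-kb tiles were read over each gene and 5 kb on either side. Of 491 tiles with at least 5 shared CpGs, 6 were called higher and 0 lower in dCas9+3A+HOXA5, where 1.45% of 1053669 tiles were called higher and 0.392% lower. The 6 tiles were in TET3 (3), TET1 (2) and DNMT3L (1). The median difference over the 491 tiles was 4.17 points, against 4.99 points over all tiles.

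The 3 TET3 tiles follow each other directly before the start. That at chr2:74209001-74210000 went from 66.1% to 95.5% over 11 CpGs, that at chr2:74210001-74211000 from 65.2% to 97.1% over 17 CpGs, and that at chr2:74211001-74212000, which holds the TET3 edge and most of the core, from 5.29% to 26.8% over 58 CpGs. Their adjusted p were 0.00850, 0.00513 and 4.02e-08 by Fisher's exact test. The outer pair was thus partly methylated in Neg already, and between -4 and -3 kb another stretch was low in Neg, with 3.57% and 13.5% in bins of 7 and 14 CpGs.

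The first TET1 tile (chr10:70322001-70323000) holds the printed TET1 edge and went from 0% to 49.0% over 10 CpGs, with 0 of 26 and 12 of 31 methylated reads (adjusted p 0.00966, Fisher's exact test). The other lies in the gene 91.4 kb from the start and went from 67.5% to 96.5% over 16 CpGs. The DNMT3L tile, 12.6 kb into the gene, went from 40.4% ± 37.3 to 70.3% ± 39.1 over 34 CpGs, with 83 of 199 and 94 of 133 methylated reads (adjusted p 5.73e-05, Fisher's exact test). The DNMT3L stretch printed above, inside this tile, was at 21.1% ± 25.1 and 68.6% ± 39.6 over 14 CpGs. With 1 CpG kept in each 150 bases, none of 258 tiles was called. Calls over all promoters also became fewer with this thinning, as given above, and the share over all tiles is not given here.

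Genes that act beside the 8 were read in 5 lists. Over promoters and bodies, none of the genes tested in any list was called: 9 readers of methylation, 16 partners of the methyltransferases and UHRF1, 10 genes of methyl donor supply, 10 cofactor and partner genes of the TET enzymes, and 8 genes of base excision repair. Over all genes, 2.34% of promoters were called higher and 0.582% lower, and 3.87% and 0.525% of bodies, so that lists of this size would hold few calls at the background rate. Promoters of ZBTB38 and EHMT2 had fewer than 5 shared CpGs. The median promoter difference was 2.09 points for the readers, 1.49 for the partners, 3.13 for methyl donor supply, 0.579 for the TET partners and 1.45 for base excision repair. At canonical starts the medians were -1.15, 0.0190, 2.02, 0.329 and 0.813 points in the same order, so that the direction for the readers depends on the start used.

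Of each list the gene with the largest difference over the promoter at the outermost start or the body is named. Among the readers, the body of ZBTB33, which encodes the methyl-CpG binder Kaiso, was at 31.1% and 40.3% over 96 CpGs, with read shares of 26.6% and 28.3% (adjusted p 0.718, Fisher's exact test). The canonical promoter of another reader, ZBTB4, named after its values were seen, differed more, with 10.7% and 28.9% over 87 CpGs (adjusted p 7.56e-07, Fisher's exact test), 18.2 points apart and not called. Among the partners, the body of EHMT2, a histone H3 lysine methyltransferase, was read at 5 CpGs, with 3 of 6 and 4 of 5 methylated reads. Partners read at more CpGs, named after their values were seen, went either way. The body of PIWIL1 was lower in dCas9+3A+HOXA5, at 38.9% and 26.2% over 287 CpGs (adjusted p 7.48e-10, Fisher's exact test). The promoter of DPPA3 was higher by 22.7 points over 28 CpGs (adjusted p 0.0134, Fisher's exact test), and neither was called. In methyl donor supply, the promoter of MAT1A, the liver form of methionine adenosyltransferase, was at 43.1% and 56.1% over 12 CpGs, with read shares of 58.5% and 57.1%. Among the TET partners, the promoter of CXXC5, a CXXC zinc finger protein, was at 43.0% and 53.9% over 79 CpGs, while its read share went the other way, from 49.5% to 45.9%. In base excision repair, the body of SMUG1, a uracil-DNA glycosylase, was at 62.0% and 74.1% over 667 CpGs (adjusted p 7.05e-27, Fisher's exact test), again short of 20 points.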

How the data were processed

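Per the methods of the study, WGBS libraries were made with a TruSeq DNA methylation kit and sequenced on a NextSeq 500, and the authors trimmed and aligned reads to hg19 and called methylation with BSMAP 2.90. The deposited files give, per the file headers, for each CpG a C count and a C or T count of reads. The authors also deposited an estimated count corrected by the opposite strand and the methylation level as a fraction of it. The methods state at least 5 reads per CpG, but CpGs with fewer are listed, and here 1 read in both libraries was required. Both strands are combined in the deposited files.

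The level of a CpG was the C count divided by the C or T count. Genes came from GENCODE 44 mapped to GRCh37. A region needed 5 shared CpGs. Two-sided Fisher's exact tests ran on summed counts over all promoters, bodies or 1-kb tiles of chromosomes 1 to 22, X and Y, with Benjamini-Hochberg adjustment. A call needed a level difference above 20 points, an adjusted p under 0.01, and the same direction in the share of methylated reads. Wilson intervals (95%) cover counting error only, and reads of one molecule are not independent. The functions were tested on simulated data in which each CpG was drawn independently, so this does not cover molecules counted at several CpGs. Python 3.11.15, NumPy 2.4.6, SciPy 1.17.1 and numba 0.67.0 were used. The 8 genes and the related lists were chosen with earlier results of these data known. Named genes were the 8, the 3 genes most like a called gene, and of each related list the called genes or, with none, the gene with the largest difference over promoter or body. ZBTB4, PIWIL1 and DPPA3 were named after their values were seen. The canonical starts were added after the annotation had been read, and the 150-base thinning and distance profiles after the values were seen.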

Additional observations from a re-analysis of the deposited data

How the results depend on the processing

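No paired analysis was possible because there is only 1 library in either group. Of 122 values for single genes under the alternatives, 110 kept their direction and their side of the threshold. All that changed were promoter values, of which 9 reversed and 3, all of TET3, lost the call. Every body value kept both. Some values could not change, as at the canonical start of genes where both starts are the same base. The promoter call was lost (0 calls) above 30 points, with 500 bases either side, with at least 5 reads, and with 1 CpG in each 150 bases, which was chosen after seeing the data; it held under the other alternatives run. Tile calls fell from 6 of 491 tiles tested to 2 of 491 above 30 points. They were 2 of 53 with at least 5 reads and 0 of 258 with 1 CpG in each 150 bases. These settings ask for a larger difference or use fewer CpGs. With at least 5 reads far fewer tiles could be tested, so the lower number of calls there is not a lower share. The share over all tiles at these settings is not given here. The median promoter difference moved from 3.64 to 9.03 points with at least 5 reads, where 2 promoters were left. The median body difference moved from 4.69 to 5.59 points as a share of reads, to 3.86 with at least 3 reads and to 6.48 with at least 5. TET1 reversed to -9.59 points as a share of reads and to -5.95 with at least 3 reads. DNMT1 reversed to -0.763 with 500 bases and to -0.516 at its canonical start, and DNMT3L to 16.1 and 1.72. UHRF1 reversed to -1.92 at its canonical start and TDG to 2.12 with 2 kb either side. DNMT3B reversed to -5.42 with 1 CpG in each 150 bases, while its read share stayed higher in dCas9+3A+HOXA5. The cause of these reversals was not tested. At a median of 2 to 3 reads per CpG, a level at 1 CpG carries little, and counts of single CpGs are descriptions without a test.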

Other observations

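Read depth was compared between exons and introns of the canonical transcripts, since an introduced copy of a coding sequence adds reads to exons. The vectors that the study describes carry DNMT3A, which is not among the genes examined here. The ratio of exon to intron reads per reference CpG in dCas9+3A+HOXA5 was divided by that in Neg. The result was 0.656 in TDG, 0.783 in DNMT3B, 0.878 in TET3 and 1.08 in UHRF1. It was 1.31 in DNMT1, 1.35 in TET1, 1.39 in DNMT3L and 1.56 in TET2. Intervals were 0.475 to 0.907 in TDG, 0.684 to 0.897 in DNMT3B, 0.790 to 0.977 in TET3 and 0.971 to 1.19 in UHRF1. They were 1.18 to 1.46 in DNMT1, 1.13 to 1.61 in TET1, 1.17 to 1.66 in DNMT3L and 1.20 to 2.02 in TET2. Relative exon depth in dCas9+3A+HOXA5 was thus lower in some genes and higher in others, and the interval of UHRF1 held equal depth. The cause of these ratios was not tested. Relative to the whole libraries, the depth over the genes was 0.974 to 1.26 times that in Neg.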
